A study of Mus musculus with 4 samples.

Results

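Pou5f1, Sox2, Klf4 and Esrrb encode transcription factors that hold mouse embryonic stem cells (ESCs) in the pluripotent state. The sites described here are RAD21 peaks whose summits lay between 25 and 200 kb from the nearest annotated transcript start of one of these 4 genes, in ESCs or in embryoid bodies (EBs). Among the deposited peaks they were picked by their distance to these genes and not by the difference between the cell types, on the mm9 build with GENCODE annotation. There were 12 of them among 18865 sites of either cell type: 11 were in the ESC list, 2 in the EB list, and 1 was in both. The 9 sites nearer than 25 kb to the same genes were kept apart.

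RAD21 was mapped by chromatin immunoprecipitation and sequencing (ChIP-seq) in R1/E ESCs, a mouse line grown with LIF, on day 0, and in EBs formed from them, on day 12 of differentiation. In EBs, aggregated cells differentiate into a mixture of types, so that EB reads average over many kinds of cell, and fewer cells with a bound site cannot be told apart from weaker binding in each. All cells carried, besides their own Rad21, a copy tagged with GFP in a BAC transgene (a long cloned piece of a chromosome), and a goat antibody raised to eGFP pulled down the tagged protein. Each cell type had 1 RAD21 library and 1 control library, labelled as goat IgG of the same isotype although its description reads input DNA, called IgG here. There were no replicates. The conditions could therefore not be tested against each other, and each interval of reads or their ratios below covers counting error alone. Intervals of shares of sites take the sites as independent draws and do not cover differences between libraries. A site listed in 1 cell type alone was chosen for high reads there, which pushes its ratio toward that cell type. The intervals do not cover this. The labelled cell types could not be checked against expressed markers, because the libraries hold ChIP DNA.

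In autosomal reads, RAD21 was sequenced to 13714772 in ESCs and 7740389 in EBs, and IgG to 12602155 and 6929293, so that the EB libraries were shallower. Values are reads within 250 bp of a summit, or these per 1000000 autosomal reads of the library (RPM). Random windows of the same width held a median of 2 ESC and 1 EB RAD21 reads. Where a count was 0, up to 3 reads were taken as possible.

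RAD21 is the subunit that closes the ring of cohesin, the complex that holds sister chromatids together and brings distant stretches of a chromosome into contact. In mammalian cells cohesin collects at sites bound by CTCF, a DNA-binding insulator protein, and in ESCs it has also been found at enhancers bound by pluripotency factors. Enhancers of pluripotency genes can lie far from the gene, and a cluster of them far downstream of Sox2 is known to drive its expression in mouse ESCs. CTCF sites at the ends of a chromatin loop tend to point toward each other. CTCF binding and DNA contacts were not analysed here, so that CTCF sites were told by sequence alone.

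Stretches resembling the CTCF binding sequence were sought with a weight matrix learned from the peaks of other chromosomes. At the laxer threshold given below, 8 of the 12 sites lay near such a stretch, beside 80.4% of all autosomal sites. The stretch of Sox2 +122.0 kb did not pass and is added only for a run of bases, described below, that was picked from these same sites. Scores are in bits, the log2 of how much likelier the stretch is under the matrix than in the genome at large. Below, each such stretch is printed 5′ to 3′ in the direction of the matrix, with the 20 matched bases in capitals and 30 bases of flank on each side, from the mm9 genome. The first 4 are shown because their matches hold a common run, GCCAGAAGAGG, and 3 of these the longer run GAGGCCAGAAGAGG.
Sox2 -48.6 kb, chr3:34500189-34500268, plus strand: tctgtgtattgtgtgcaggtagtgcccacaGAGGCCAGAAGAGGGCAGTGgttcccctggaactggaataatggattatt
Sox2 +122.0 kb, chr3:34671117-34671196, plus strand: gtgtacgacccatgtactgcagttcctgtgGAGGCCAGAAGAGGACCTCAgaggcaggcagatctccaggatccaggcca
Klf4 +167.1 kb, chr4:55377423-55377502, minus strand: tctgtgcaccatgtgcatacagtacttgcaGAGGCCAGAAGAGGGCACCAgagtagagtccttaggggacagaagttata
Esrrb -63.5 kb, chr12:87638577-87638656, minus strand: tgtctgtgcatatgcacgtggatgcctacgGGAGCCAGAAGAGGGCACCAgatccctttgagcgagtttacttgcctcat

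The other 5 had matches without that run, at the laxer threshold given below, and are shown to let the letters be compared.
Pou5f1 -40.1 kb, chr17:35602782-35602861, plus strand: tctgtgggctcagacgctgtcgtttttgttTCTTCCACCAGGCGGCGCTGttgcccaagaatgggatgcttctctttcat
Pou5f1 +126.4 kb, chr17:35772695-35772774, plus strand: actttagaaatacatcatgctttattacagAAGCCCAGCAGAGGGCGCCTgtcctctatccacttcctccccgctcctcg
Sox2 +109.9 kb, chr3:34658992-34659071, minus strand: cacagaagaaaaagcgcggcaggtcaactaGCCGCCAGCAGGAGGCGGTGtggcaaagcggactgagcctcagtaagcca
Klf4 +53.7 kb, chr4:55490922-55491001, plus strand: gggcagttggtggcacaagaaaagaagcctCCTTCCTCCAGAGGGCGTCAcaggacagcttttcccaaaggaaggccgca
Esrrb +109.9 kb, chr12:87955290-87955369, minus strand: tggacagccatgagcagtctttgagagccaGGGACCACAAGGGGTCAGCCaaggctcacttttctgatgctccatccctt

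**Figure D1:**
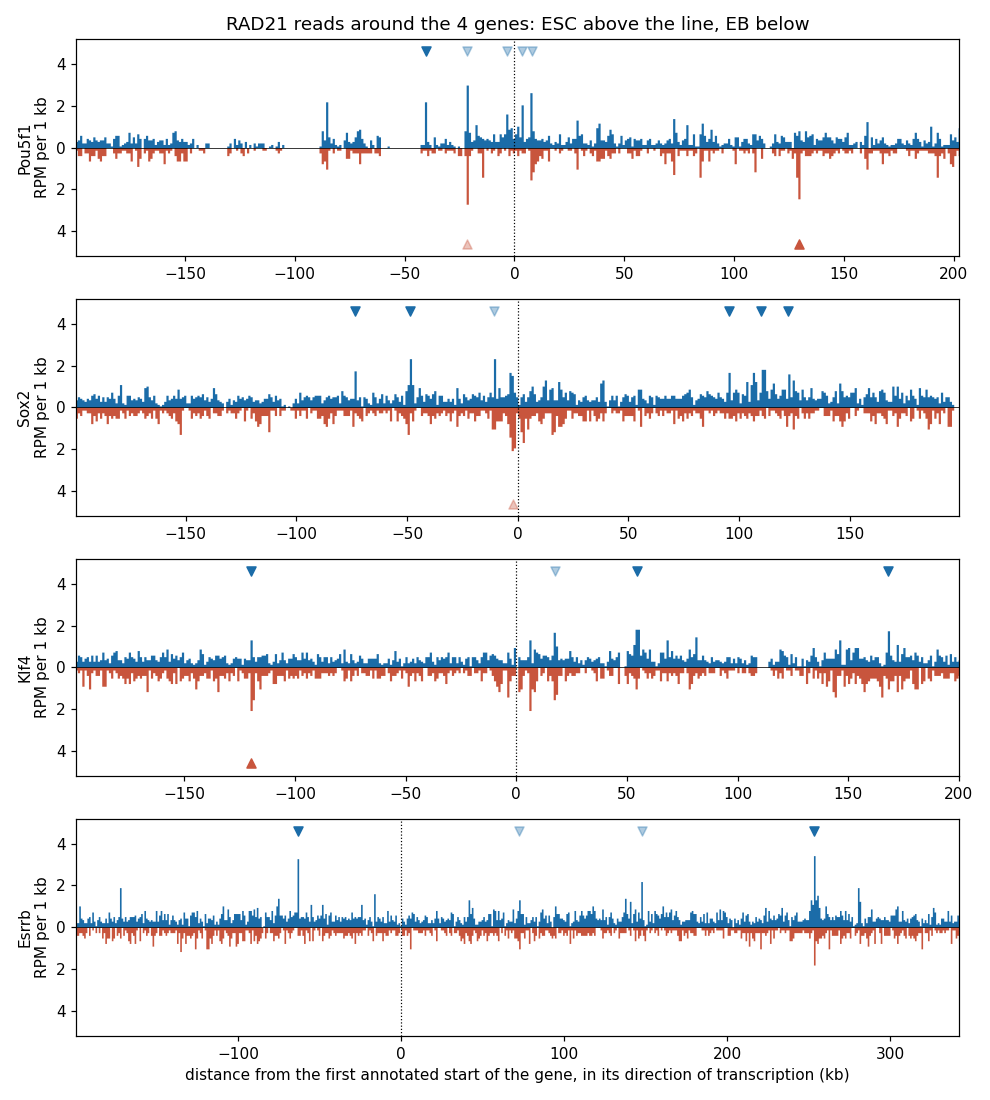
RAD21 reads in 1 kb bins (RPM per 1 kb, ESC upward and EB downward) against the distance in kb from the first annotated start of Pou5f1, Sox2, Klf4 and Esrrb, with dotted lines at that start. Arrowheads mark deposited sites, dark for those 25 to 200 kb from the nearest start and pale for the rest. Most of the dark arrowheads are in the ESC row. Esrrb is drawn wider because its starts are spread along the gene.

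Sox2, which partners Oct4 on DNA, had the most distal sites, 5 in the ESC list and 0 in the EB list. The sum over them was 103 ESC and 9 EB RAD21 reads, an EB to ESC ratio of 0.155 (95% interval 0.0688 to 0.306). All 5 sites were in the ESC list alone, so that a low ratio was favoured by their choice. The IgG libraries held 22 and 3 reads there, a ratio of 0.248 (0.0475 to 0.825), so that IgG reads were also fewer in EBs. RAD21 stood 4.30-fold (2.70 to 7.16) above IgG in ESCs and 2.69-fold (0.670 to 15.4) in EBs, and with so few EB reads these 2 values cannot be told apart. Away from listed sites, the region around Sox2 had an EB to ESC ratio of 0.714 for RAD21 (0.663 to 0.768) and 0.781 for IgG (0.721 to 0.845). The part of these regional differences in the result was not tested beyond the rescaling given below.

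Both upstream sites lay in introns of Sox2ot, the long noncoding transcript that overlaps Sox2. The site 48602 bp upstream (chr3:34499792-34500832) had the highest score of the Sox2 sites, 118.9, where the score is the log10 of the peak caller's p-value times -10. It held 26 ESC RAD21 reads and 1 EB RAD21 read, against 5 and 0 IgG reads. ESC RAD21 was thus 14.7-fold higher by RPM (2.41 to 602). The site 73630 bp upstream (chr3:34474830-34475728) held 16 ESC and 0 EB RAD21 reads, with 4 and 1 IgG reads. Taking 3 reads as the limit in EBs, ESC RAD21 was at least 3.01-fold higher, and the exact interval of the ratio, which also covers the error of the ESC count, had a lower bound of 2.18. With the counting window widened to 500 bp on each side the log2 ratio there was -1.02 in place of -3.66, since EB reads lie in its flanks.

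The 3 downstream sites lay in intergenic sequence within 26755 bp of each other. The site at 109938 bp (chr3:34658679-34659477) held 22 ESC and 2 EB RAD21 reads and 3 and 0 IgG reads, a 6.21-fold difference (1.53 to 54.5). The site at 122049 bp (chr3:34670675-34671590) held 21 and 3 RAD21 reads and 4 and 2 IgG reads, 3.95-fold (1.18 to 20.7). The site at 95294 bp (chr3:34643847-34644509) had a score of 50.05, just above the lowest of the list, and 18 and 3 RAD21 reads against 6 and 0 IgG reads. Its ratio of 3.39 had an interval that included 1 (0.989 to 17.9). In all 5 Sox2 sites the ESC count was the higher, and EB counts did not exceed 3 reads. Being in the ESC list alone chose the 5 sites for such counts, so that their likeness is no added support.

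Esrrb, an orphan nuclear receptor, had 2 distal sites, both in the ESC list alone and both with higher scores than any other of the 12. The site 63458 bp upstream (chr12:87638189-87639079), in an intron of 4732487G21Rik, had a score of 224.97. It held 37 ESC and 0 EB RAD21 reads, beside 5 and 1 IgG reads. With the limit of 3 EB reads ESC RAD21 was at least 6.96-fold higher, and the exact interval had a lower bound of 5.38. The log2 ratio of EB to ESC, -4.81, was the lowest of the 12 sites. The site 109894 bp downstream of the last Esrrb start (chr12:87954782-87955882), intergenic and 7918 bp from the start of AC102689.1, scored 203.42 and held 38 and 10 RAD21 reads and 4 and 2 IgG reads. There ESC RAD21 was 2.14-fold higher (1.05 to 4.83). The EB reads at this site were still more than in nearly all random windows, of which 0.058% held as many. In the region around Esrrb the ratio away from sites was 0.671 for RAD21 (0.629 to 0.716) and 0.754 for IgG (0.704 to 0.807). Divided by that regional RAD21 ratio, the log2 ratio of the downstream site went from -1.04 to -0.47.

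Pou5f1, which encodes Oct4, had 2 distal sites that differed in opposite directions. The upstream site (chr17:35602359-35603258) lay at 40128 bp, in an exon of Gm20527 and 4180 bp from the start of H2-Q10, a class I histocompatibility gene. It held 26 ESC and 2 EB RAD21 reads and 2 and 1 IgG reads, a 7.34-fold difference (1.84 to 63.8). In EBs 42.1% of random windows held as many reads. The downstream site (chr17:35772494-35772951), 126354 bp from the nearest Pou5f1 start and in an intron of Sfta2, a surfactant-associated gene, was the only distal site of the EB list alone. It held 7 ESC and 16 EB RAD21 reads and 3 and 2 IgG reads, so that EB RAD21 was 4.05-fold higher (1.58 to 11.6). Between 40 and 150 kb upstream of Pou5f1, 38 of 110 bins of 1 kb held no read in any of the 4 libraries, against 0 or 1 in the same stretch of the other 3 genes, so that sites there could have been missed.

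Klf4, a zinc finger factor, had 3 distal sites, and none differed by 2-fold or more as counted. The site at -119723 bp (chr4:55664766-55665261), intergenic, was the only one in both lists. It held 15 ESC and 9 EB RAD21 reads and 1 and 2 IgG reads, an EB to ESC ratio of 1.06 (0.410 to 2.59). At its EB summit, 171 bp away, it held 14 and 13 RAD21 reads, a ratio of 1.65 (0.712 to 3.77). The site at 53722 bp downstream (chr4:55490761-55491399), also intergenic, held 18 and 7 RAD21 reads and 3 and 1 IgG reads, with ESC RAD21 1.45-fold higher (0.578 to 4.11). The site at 167134 bp downstream (chr4:55377113-55377884), in an intron of Rad23b, held 17 and 6 RAD21 reads and 3 and 4 IgG reads, with ESC RAD21 1.599-fold higher (0.602 to 4.95). With IgG subtracted its log2 ratio of EB to ESC went from -0.61 to -1.89, past 2-fold. Scaling by GC class took Klf4 +53.7 kb from -0.49 to 0.05, and a window of 150 bp on each side took Klf4 -119.7 kb from 0.08 to -0.89. At these depths a difference of up to about the upper bounds could have gone unseen, so that the Klf4 sites are not shown to be alike in both cell types. The region around Klf4 also differed least between the libraries, with a ratio of 0.903 for RAD21 (0.841 to 0.969) and 0.839 for IgG (0.774 to 0.908).

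**Figure D2:**
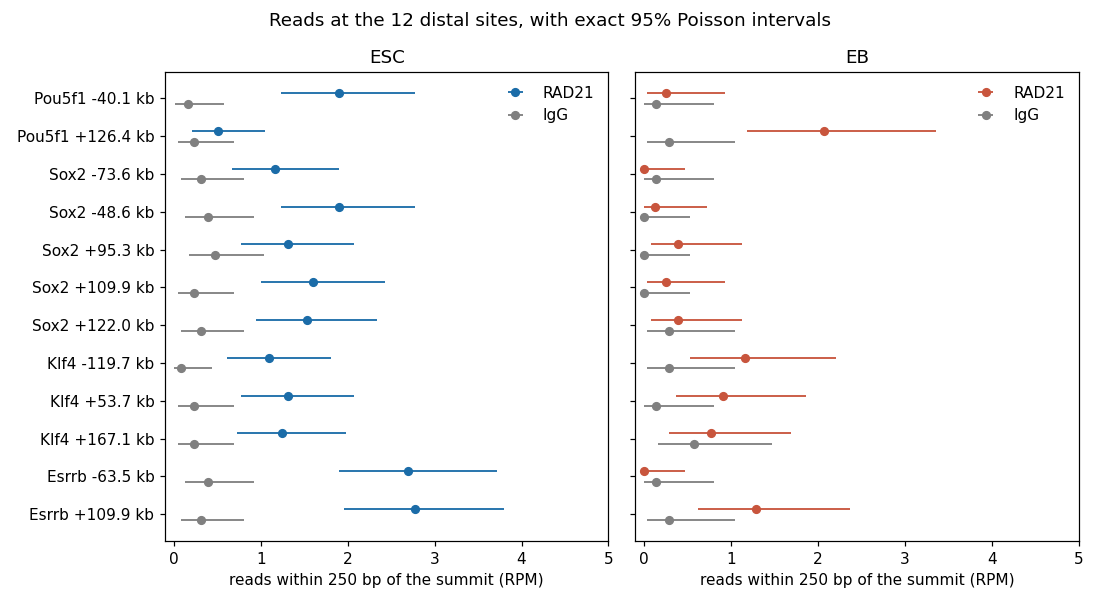
RAD21 (coloured) and IgG (grey) reads within 250 bp of each of the 12 summits, in RPM, in ESCs (left) and EBs (right), with exact 95% Poisson intervals. ESC RAD21 lies above ESC IgG at each of the 12 sites, and EB RAD21 above EB IgG at all but Sox2 -73.6 kb and Esrrb -63.5 kb. The intervals of RAD21 and IgG overlap in ESCs at Pou5f1 +126.4 kb, Sox2 -73.6 kb and Sox2 +95.3 kb. In EBs they overlap at 11 sites and do not at Pou5f1 +126.4 kb.

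Of the 11 distal sites of the ESC list, 1 overlapped an EB site, whereas 48.6% of all autosomal ESC sites did. Of the 2 sites of the EB list 1 overlapped an ESC site, beside 68.3% of all EB sites. RAD21 was at least 2-fold lower in EBs at 8 of the 12 sites, with 0.1 RPM added to each value, and at 24.6% of all autosomal sites of either list. Counted over the ESC list alone, it was 8 of 11 sites and 30.2% of all. One site, Pou5f1 +126.4 kb, was at least 2-fold higher in EBs, as were 18.4% of all sites. The exact interval of the ratio lay below 1 at 7 of the 12 sites and at 18.4% of all. The log2 of EB over ESC RAD21 had a median of -1.64 over the 12 sites and -0.01 over all autosomal sites. Sites of the EB list alone were 1 of the 12 and 3419 of all 18504. Over the whole ESC list, shared sites included, the median was -1.74 at the 11 distal sites and -0.33 at all. Among sites of the ESC list alone, which are low in EBs by their choice, the median was -1.996 over the 10 distal sites and -1.20 over all 7757.

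**Figure D3:**
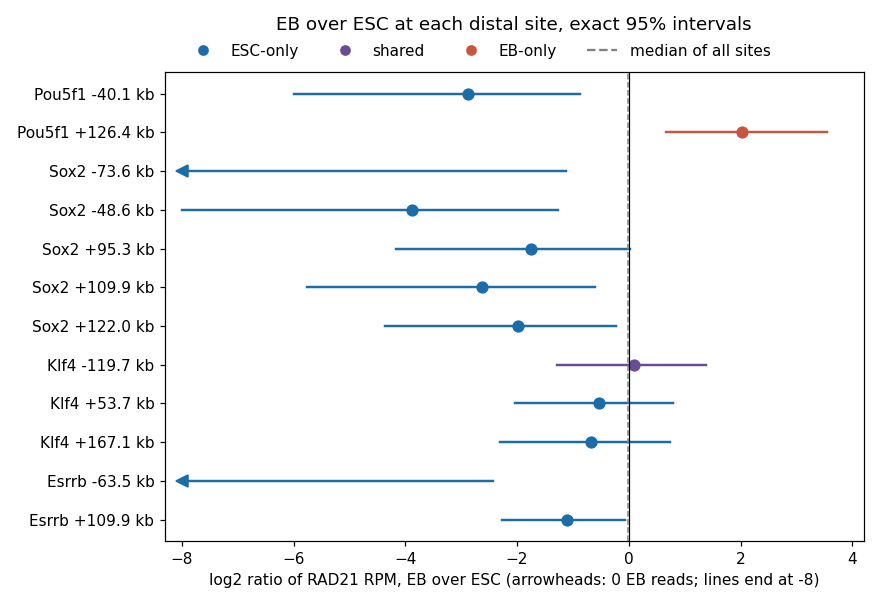
Log2 ratio of EB over ESC RAD21 RPM at each distal site (points) with exact 95% intervals (lines), coloured by the list that holds the site. The arrowheads stand for 0 EB reads, lines are drawn no further than -8, and the dashed line is the median of all autosomal sites, -0.01. The Sox2 sites lie left of 0 and the Klf4 sites near it.

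Strong ESC sites were more often shared with EBs than weak ones, so the scores were looked at. Among all ESC sites with a score of 150 to 250, 74.1% were shared (72.4 to 75.8), and both Esrrb sites fell in that range without being shared. From 100 to 150 it was 55.5% of all and 0 of 2 distal sites, Pou5f1 -40.1 kb and Sox2 -48.6 kb. From 70 to 100 it was 40.2% of all and 0 of 3, and from 50 to 70 it was 26.3% of all and 1 of 4. No distal site reached 250.

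Depth was equalised by thinning the ESC libraries at random to the EB read numbers, and 1 rule was applied to both cell types. The rule asked for a window of 400 bp with more RAD21 reads than its background at a Poisson p of at most 1e-05. It was passed in EB reads by 2 of the 11 sites, Klf4 -119.7 kb and Esrrb +109.9 kb, beside 54.7% of all ESC sites. In thinned ESC reads it was passed by 8 of the 11, beside 79.6% of all, and by 7 and 8 in further draws. The 11 sites, like all ESC sites, were called from these same ESC reads, so that passing in them was favoured. Thinning evens the depth and does not remove this choice. Esrrb +109.9 kb was thus in the ESC list alone but passed in both cell types. Scanned over the whole 25 to 200 kb around the genes, the rule found 7 regions in EB reads and 9 to 12 in the thinned ESC reads. Around Sox2 it found 0 regions in EB reads, 3 to 6 in the thinned ESC reads and 8 in the full ESC reads.

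**Figure D4:**
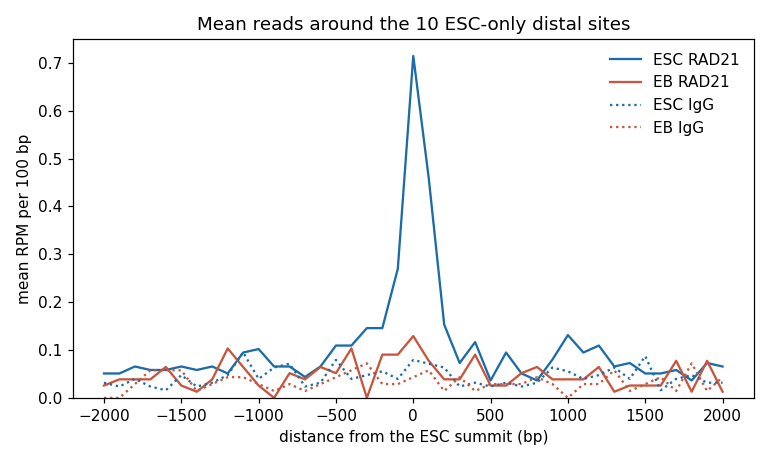
Mean RPM per 100 bp of the 4 libraries within 2 kb of the ESC summits of the 10 sites found in the ESC list alone. The ESC RAD21 line reaches 0.715 at the summit, the EB RAD21 line 0.129, the ESC IgG line 0.0794 and the EB IgG line 0.0433. These sites were chosen by being in the ESC list and not the EB list, so the gap itself is no finding.

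The EB reads left at the summits of the 10 sites listed in ESCs alone were then compared with IgG. They held 34 EB RAD21 and 12 EB IgG reads, a 2.54-fold enrichment (1.28 to 5.38) after scaling, against 5.63-fold (4.001 to 8.12) in ESCs. All 7757 such sites had an EB enrichment of 3.04-fold (2.98 to 3.10). Of the 34 reads 10 came from Esrrb +109.9 kb and 13 from both ESC-only Klf4 sites, the 3 sites with most EB reads. The other 7 sites held 11 EB RAD21 and 5 EB IgG reads, a ratio of 1.97 (0.631 to 7.23). They had 1.57 RAD21 reads per site, beside a mean of 1.53 in random windows. Setting aside the sites with most EB reads left the low ones, so that this nearness to random windows is no finding.

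The CTCF matrix found a match at the stricter threshold, passed by 1e-05 of the positions in random windows, within 150 bp of 3 of the 12 summits (25%). All sites had 33.7%, and random windows about 0.3%. The 3 sites were Klf4 +167.1 kb with 27.1 bits, Sox2 -48.6 kb with 25.1 bits and Esrrb -63.5 kb with 24.4 bits. At a threshold of 1e-04 it was 8 of 12, beside 80.4% of all sites. The 5 added were Pou5f1 +126.4 kb (19.9 bits), Sox2 +109.9 kb (19.2 bits), Esrrb +109.9 kb (19.04 bits), Klf4 +53.7 kb (17.1 bits) and Pou5f1 -40.1 kb (15.8 bits). Sox2 +122.0 kb, at 11.8 bits, passed neither threshold although its match holds the run of 14 bases. Sox2 -73.6 kb, Sox2 +95.3 kb and Klf4 -119.7 kb had no match, and no stretch is printed for them. The scan was centred on the ESC summit of Klf4 -119.7 kb, the only site in both lists. Its EB summit, 171 bp away, lay outside the scanned stretch, so that a match nearer to it could have been missed.

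Of the 3 strict matches 1 pointed toward its gene, at Sox2 -48.6 kb, and the matches of Klf4 +167.1 kb and Esrrb -63.5 kb pointed away. Of the 8 matches at the laxer threshold 5 pointed toward the gene, among them Sox2 -48.6 kb upstream and Sox2 +109.9 kb downstream, which face each other across Sox2. A match can only point toward or away, and the share at other sites was not counted, so that these counts are no finding. Whether the Sox2 pair bounds a loop was not tested. The 2 Pou5f1 matches both lie on the plus strand, so that the upstream one faces the gene and the downstream one does not.

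The run GAGGCCAGAAGAGG, noticed in the matches after they were printed, was within 150 bp of the summit, on either strand, at 3 of the 12 sites. It was chosen as the longest run that at least 3 of the matches share, so that this count is no finding. The run was at 3.33% of all autosomal sites (3.08 to 3.60) and at 0.074% of random windows (0.052 to 0.102). By list it was at 7.30% of the sites in the ESC list alone, 0.491% of the shared and 0.409% of the sites in the EB list alone. Of the 602 ESC sites that hold it 5.98% were also listed in EBs (4.22 to 8.18), against 48.0% of those with a strict CTCF match and no such run (46.6 to 49.3). In the mouse many CTCF sites are carried by copies of the B2 family of short interspersed repeats. Repeat annotation was not used here, and whether these sites lie in a repeat was not tested.

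Exact sequence patterns of other factors were rare at the 12 sites, within 150 bp of the summit and on both strands. The Klf pattern GGGTGTGG was at 1 site, Klf4 -119.7 kb, and at 1.87% of all sites. The Fox pattern TGTTTAC was at Klf4 -119.7 kb and Sox2 -48.6 kb and at 4.44% of all. The Gata pattern AGATAAG was at Klf4 +167.1 kb and at 3.59% of all. The patterns ATGCAAAT for Oct, CATTGTT for Sox and TCAAGGTCA for Esrrb were at 0 of the 12 and at 1.95%, 4.76% and 0.686% of all sites. Random windows held the 6 patterns at 0.610% to 5.97%. With 12 sites and shares this low, counts of 0 to 2 do not set them apart from other sites.

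Among the 9 sites nearer than 25 kb, RAD21 was at least 2-fold lower in EBs at 4, with a median log2 ratio of -0.57 beside -1.64 at the distal sites. The last site left out on the near side, Pou5f1 -21.7 kb, was in both lists and held 31 ESC and 16 EB RAD21 reads. On the far side the nearest were Sox2 -203.2 kb with 18 and 4 reads and Esrrb +211.1 kb with 22 and 3. Inside the limits the sites nearest to them were Pou5f1 -40.1 kb, with 26 and 2 reads, and Klf4 +167.1 kb, with 17 and 6.

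The same distances were applied to 19 other pluripotency genes, among them Nanog, Klf2, Prdm14 and Zfp42. Their 105 distal sites had a median log2 ratio of -0.90, 49 were at least 2-fold lower in EBs and 2 at least 2-fold higher. Of their 101 ESC sites 34 were shared with EBs. Of 8 distal sites of Nanog, the homeobox factor, 5 were shared, and of 7 of Klf2 2 were shared. Other genes had none shared: it was 0 of 5 at Foxd3 and at Sall4, 0 of 3 at Prdm14 and at Nr5a2, and 0 of 2 at Zfp42. Among the lineage genes described next it was 0 of 3 at Cdx2 and at Eomes. Having no shared site was thus not particular to Sox2 and Esrrb. Around 19 lineage genes, among them Gata4, Gata6, T and Foxa2, 74 autosomal distal sites had a median log2 ratio of -0.01, with 21 lower and 12 higher. Of 59 ESC sites there 30 were shared. Sites of the EB list alone, high in EBs by their choice, were 4 of the 105 and 15 of the 74, and the sums that follow hold them too. Over the ESC list the median log2 ratio was -0.99 around the other pluripotency genes and -0.35 around the lineage genes. The summed RAD21 reads had an EB to ESC ratio of 0.401 (0.297 to 0.533) at the 12 sites, 0.614 (0.570 to 0.662) at those of the other pluripotency genes and 0.999 (0.925 to 1.08) at those of the lineage genes. The IgG ratios were 0.677 (0.356 to 1.23), 0.902 (0.748 to 1.08) and 1.06 (0.849 to 1.31). No test sets these groups of sites apart.

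**Figure D5:**
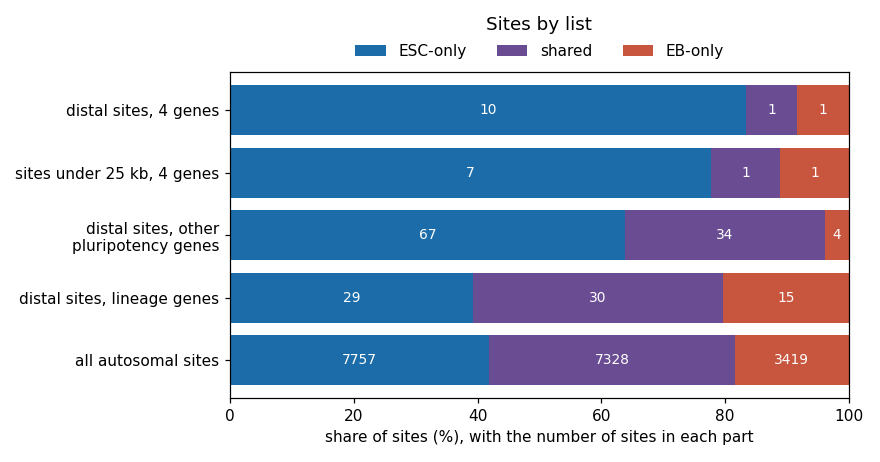
Share of sites (%) in the ESC list alone, in both lists and in the EB list alone, with their numbers written in the bars, for the 12 distal sites, the 9 nearer sites, the distal sites of other pluripotency and of lineage genes, and all autosomal sites. The ESC list alone holds 10 of the 12 distal sites and 7757 of 18504 autosomal sites.

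Base composition moved with the ratio in all libraries. In random windows the log2 ratio of EB to ESC went from 0.47 in the class of lowest GC content to -0.54 in the highest for RAD21, and from 0.40 to -0.52 for IgG. The 12 sites had a median GC content of 48.2%, all autosomal sites 44.9%. After division by the ratio of random windows of the same GC class, 7 of the 12 sites were at least 2-fold lower in EBs and the median log2 ratio was -1.61. After division by the ratio of each gene's own region away from sites, a scaling chosen after seeing the data, they were 7 and -1.15.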

How the data were processed

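The authors sequenced reads of 35 bases, aligned them to mm9 and deposited 1 read position per line, which are not scaled; these were counted here. The aligner is not given in the sources used here. With MACS the authors called peaks per cell type against the IgG library, and deposited for each peak a score (the log10 of the p-value times -10) and for each summit the signal of overlapping reads, not compared here. The EB IgG file breaks off within chromosome X and the ESC IgG file held 7 broken lines, so only autosomes were compared.

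Reads were moved to the fragment centre (206 bp fragments in ESCs, 198 bp in EBs) and counted. Ratios of RPM have exact Clopper-Pearson intervals at the 95% level. Sites overlapping by at least 1 bp were called shared. The Poisson background was the highest of the genome mean and the scaled IgG density over 1000 and 10000 bp, in 400 bp windows moved by 50 bp. Background shares came from 50000 random windows. The matrix of 20 bases was learned on even chromosomes for odd ones and the reverse. Of 20 genes in each comparison list 19 were in the annotation (Tfcp2l1 and Sox1 were not matched). All 12 sites are accounted for, and the values in full are those of each gene's sites. The genes and lists were chosen with earlier results of these data known. The scripts were tested on simulated data. Python 3.11.15, numpy 2.4.6, pandas 2.3.3, scipy 1.17.1 and pysam 0.24.0 were used.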

Additional observations from a re-analysis of the deposited data

Results flagged for a closer look

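At 2 distal sites scaled RAD21 reads lay above IgG in ESCs and below it in EBs, by 0 reads against 1, and the difference between the cell types was not tested. At Sox2 -73.6 kb ESC RAD21 was 3.68-fold above IgG (1.19 to 15.1), while EBs held 0 RAD21 reads and 1 IgG read. At Esrrb -63.5 kb it was 6.80-fold (2.67 to 22.2), while EBs again held 0 RAD21 reads and 1 IgG read. The exact EB interval of RAD21 over IgG ran from 0 to 34.9 at both sites and included 1, so that a reversal is not shown.

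The window rule also found regions 25 to 200 kb from the 4 genes that are in no deposited list, 13 in ESC reads and 4 in EB reads. In the ESC reads thinned to EB depth there were 3, 1 and 4 in the 3 draws, so that the higher ESC number was not seen at equal depth. Counts are given below without intervals for regions that passed in 1 cell type alone, since passing chose them for high reads in it. Of the 4 EB regions 3 were around Pou5f1 and 1 around Klf4. The regions 69 and 82 kb downstream of Pou5f1 passed in both cell types, with 15 ESC and 9 EB RAD21 reads and with 12 and 9. The region 189 kb downstream of Pou5f1 passed in EB reads alone and held 4 ESC and 10 EB reads. Of the 13 ESC regions 3 lay downstream of Sox2. The one at 111069 bp, beside the listed site at 109938 bp, passed in ESC reads alone and held 22 ESC and 2 EB RAD21 reads but also 7 and 3 IgG reads.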

How the results depend on the processing

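The count of sites at least 2-fold lower in EBs stayed at 7 or 8 of 12 under 10 alternatives (counting window, added value, 4 scalings, IgG subtraction and read ends), and the count at least 2-fold higher at 1. The sites that crossed the limit in some of these 10 were Esrrb +109.9 kb (lower in 6), Sox2 +95.3 kb (lower in 9) and Klf4 +167.1 kb (lower in 1, with IgG subtracted, at -1.89). With scores of at least 100 the ESC list held 4 distal sites and the EB list 1, of which 0 and 0 were shared. Measured from the first start of each gene alone, the ESC list held 12 distal sites in place of 11. Esrrb +109.9 kb, 253186 bp from the first Esrrb start, then fell outside. Sites 72118 and 147709 bp downstream of that start came in, with 18 ESC and 7 EB RAD21 reads and with 20 and 1. The median log2 ratio lay between -1.99 and -1.30 under the other scalings, windows and added values and was -1.15 after scaling by the region. With a p of at most 1e-07, 1 ESC site passed the window rule in EB reads. At the laxer motif threshold 8 sites had a CTCF match and 5 pointed toward the gene. At the stricter threshold, within 100 bp of the summit, 2 sites had a match and 0 pointed toward the gene. Counting the run of 11 bases in place of 14 gave 1418 sites in place of 616. The other alternatives moved no count by over 1.5 times. No paired analysis was possible because each group has 1 library. Depth limits the single ratios: at Sox2 +95.3 kb, with 18 ESC and 3 EB reads, the interval of a 3.39-fold ratio still included 1.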

Other observations

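The run GAGGCCAGAAGAGG was followed beyond the 12 sites, after it had been seen in them. The 602 ESC sites that hold it had a summed EB to ESC ratio of 0.345 for RAD21 (0.331 to 0.360) and 0.817 for IgG (0.752 to 0.886). At the 5130 ESC sites with a strict CTCF match and no run these were 0.890 (0.882 to 0.898) and 1.01 (0.984 to 1.04). Their median GC contents were 43.7% and 45.7%, and their median scores 81.3 and 99.8. Among ESC sites with a score of at least 100, 9.85% of the 203 with the run were also listed in EBs (6.12 to 14.8), and 68.7% of the 6745 without it (67.5 to 69.8). RAD21 was 2.82-fold above IgG in EBs at the sites with the run (2.61 to 3.04) and 6.89-fold at those with a strict match and no run (6.74 to 7.04). Over all 7757 sites of the ESC list alone, which include 566 of the 602, it was 3.04-fold (2.98 to 3.10). With the shorter run GCCAGAAGAGG, which Esrrb -63.5 kb also holds, 8.05% of 1379 ESC sites were shared (6.67 to 9.61). Whether reads from such stretches were placed alike in both cell types was not tested.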
